A study of Mus musculus with 9 samples.

Results

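Ligands and receptors of the tumour necrosis factor (TNF) superfamily were followed in BV2 cells, an immortalized line of mouse microglia, after exposure to silica-coated magnetic nanoparticles. The members were the 10 genes of the deposited expression table, out of 40993, that carry the names Tnf, Ltb, Tnfsf9, Tnfsf12, Tnfrsf1a, Tnfrsf1b, Tnfrsf4, Tnfrsf9, Cd40 and Fas. The first 4 encode ligands and the other 6 encode receptors, and each name occurred once in the table. RNA came from 3 libraries of non-treated control cells, 3 libraries of cells given 10 µg/ml MNPs@SiO2(RITC) for 12 h (the low dose) and 3 libraries of cells given 100 µg/ml for 12 h (the high dose). MNPs@SiO2(RITC) are particles with a cobalt ferrite core and a silica shell that holds the dye rhodamine B isothiocyanate. The sample labels write the doses as 0.01 and 0.1 µg/µl. All libraries came from the same immortalized line, with no primary microglia among them, and the labels do not say whether the replicates were separate cultures, so p-values measure only the spread between these libraries. The question was whether the particles changed the RNA of these genes, and at which dose.

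TNF superfamily ligands are mostly trimeric membrane proteins, some of which are cut from the cell surface and act as soluble cytokines. They bind receptors, many of which activate NF-κB and MAP kinases through TRAF adaptors. Among them, receptors with a death domain can also start apoptosis or necroptosis. In the brain, microglia are a major source of TNF, and they carry both TNF receptors, Tnfrsf1a with a death domain and Tnfrsf1b without one.

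Promoter sequence is shown for 4 starts to place the receptors the results turn on beside their regulatory DNA: Tnfrsf1b, the member that passed the test, Tnfrsf1a, the other receptor of the same ligand, Fas, and the second start of Tnfrsf9, the only member start that held both motifs searched. The sequences are from RefSeq (GRCm38.p6), 250 bases upstream of each transcript start, 5′ to 3′ on the strand of the gene, with motif matches in capitals.
Tnfrsf1b, chr4:145246871-145247120, minus strand: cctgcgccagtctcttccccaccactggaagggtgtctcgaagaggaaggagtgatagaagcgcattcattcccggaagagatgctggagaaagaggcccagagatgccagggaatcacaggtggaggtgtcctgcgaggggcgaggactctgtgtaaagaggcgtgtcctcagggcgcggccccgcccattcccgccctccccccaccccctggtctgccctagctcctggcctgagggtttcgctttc
Tnfrsf1a, chr6:125349473-125349722, plus strand: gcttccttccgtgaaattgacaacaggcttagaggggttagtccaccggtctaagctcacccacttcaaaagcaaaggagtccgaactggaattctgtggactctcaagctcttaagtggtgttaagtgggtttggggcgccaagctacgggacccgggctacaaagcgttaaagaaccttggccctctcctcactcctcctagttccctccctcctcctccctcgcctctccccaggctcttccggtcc
Fas, chr19:34290409-34290658, plus strand: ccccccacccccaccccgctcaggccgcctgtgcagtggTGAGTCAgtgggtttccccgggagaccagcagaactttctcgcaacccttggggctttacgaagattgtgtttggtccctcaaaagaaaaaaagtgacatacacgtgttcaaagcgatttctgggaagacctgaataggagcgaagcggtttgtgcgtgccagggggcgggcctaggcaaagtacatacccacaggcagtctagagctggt
Tnfrsf9, second start, chr4:150927749-150927998, plus strand: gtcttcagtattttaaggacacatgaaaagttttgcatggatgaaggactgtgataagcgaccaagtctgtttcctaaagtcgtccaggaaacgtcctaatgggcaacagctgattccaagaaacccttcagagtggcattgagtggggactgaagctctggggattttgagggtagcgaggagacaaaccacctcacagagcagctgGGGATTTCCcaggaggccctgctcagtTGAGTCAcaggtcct
The search covered 300 bases, from 250 before to 50 after each start, on both strands, for GGNNTTTCC, a form of the κB motif, and TGANTCA, the AP-1 motif, and no 2 matches shared a base. Of the 10 members, 7 had promoter entries, with 8 starts among them. The κB letters were found in 2 of these 8 promoters, at the second start of Tnfrsf9, where they read GGGATTTCC and lay from -42 to -34 relative to the start, and on the minus strand in Ltb from -87 to -79. The AP-1 letters were also found in 2 of the 8, at that Tnfrsf9 start from -15 to -9 and in Fas from -211 to -205. Neither was found in the windows of Tnf, Tnfrsf1a, Tnfrsf1b, Tnfrsf4 or the first start of Tnfrsf9. Of 32851 mouse promoters of this length, 5.82% held the κB letters and 7.81% the AP-1 letters. The Tnfrsf1b and Fas starts coincided with the first base of the gene in the deposited table, whereas the Tnfrsf1a start lay 361 bases and the second Tnfrsf9 start 13437 bases inside it.

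Expression was given as FPKM, a number of fragments scaled to the length of the transcript and to the size of the library, so levels can be set side by side between genes. The depth, estimated from the steps between low values, was between 12150000 and 15200000 fragments a library. BV2 cells carried the macrophage genes Cd68 (413 FPKM on average), Csf1r (135 FPKM) and Trem2 (126 FPKM), but the homeostatic microglia markers Cx3cr1 and P2ry12 were near 0, at 0.037 and 0.093 FPKM. Of 10 T and B cell markers, Lck alone, at 1.39 FPKM, passed the filter of 1 FPKM, and Cd3d, Cd3e, Cd3g and Cd79a were listed at 0 in every library. Together these 10 markers came to between 1.29 and 2.44 FPKM in control, 1.20 and 2.74 FPKM at the low dose, and 1.72 and 2.19 FPKM at the high dose. In bulk RNA, fewer cells that express a gene and less RNA per cell cannot be told apart.

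In control cells the members fell into an abundant, a middle and a scarce class. Tnfrsf1b was the most abundant at 64.0 ± 3.77 FPKM (SD, n = 3), above Tnfrsf1a at 33.9 ± 1.84 FPKM (SD, n = 3) and Tnf at 28.4 ± 2.66 FPKM (SD, n = 3). Tnfsf9 at 10.3 ± 0.271 FPKM (SD, n = 3), Tnfrsf9 at 8.19 ± 1.85 FPKM (SD, n = 3), Cd40 at 7.72 ± 2.18 FPKM (SD, n = 3) and Fas at 5.16 ± 0.894 FPKM (SD, n = 3) followed. Tnfrsf4 at 0.821 ± 0.435 FPKM (SD, n = 3), Tnfsf12 at 0.223 ± 0.133 FPKM (SD, n = 3) and Ltb at 0.0480 ± 0.0472 FPKM (SD, n = 3) were the scarcest. Among neighbours in this order, the control libraries of Tnfrsf9 and Cd40, of Cd40 and Fas, and of Tnfrsf4 and Tnfsf12 overlapped, whereas the other neighbours were separated in all 3 control libraries. Over the 9 libraries, 83.8% of the 11161 tested genes had a lower mean than Tnfrsf1b and 17.2% had a lower mean than Fas.

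**Figure D1:**
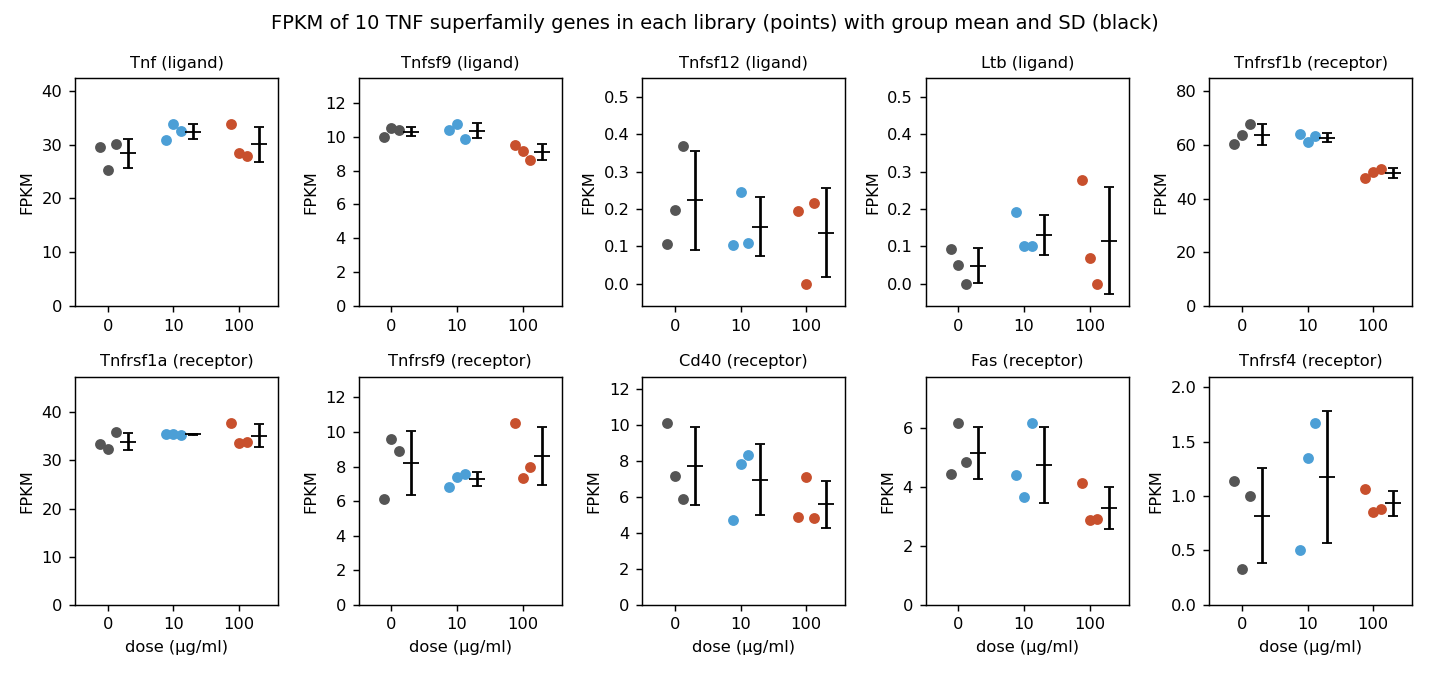
FPKM (vertical axes, each from about 0 with its own scale) of the 10 members at 0, 10 and 100 µg/ml MNPs@SiO2(RITC). Each point is a library and the black bar beside it is the group mean with its SD; the 3 Tnfrsf1b libraries at 100 µg/ml sit between 47.6 and 51.2 FPKM, below all 6 others, while those of Tnf overlap the control libraries.

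At 100 µg/ml, 1 member differed from control past the threshold: Tnfrsf1b, which was 22.4% lower. Tnf, Tnfrsf1a, Tnfsf9, Tnfrsf9, Cd40 and Fas did not pass. Of the 10 members, 7 had a mean of at least 1 FPKM and were tested with limma, and 1 of these 7 had an adjusted p under 0.05, against 2.11% of all tested genes. Libraries at 100 µg/ml and control libraries did not overlap for 3 of the 7, Tnfrsf1b, Tnfsf9 and Fas, each lower at 100 µg/ml, against 23.8% of all tested genes. The same 3 were past an unadjusted p of 0.05, against 19.4% of all tested genes. The median log2 fold change of the 7 was -0.16, beside -0.0016 over all tested genes.

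At 10 µg/ml no member passed the threshold, nor did any other gene, so that the share called by limma was 0%. None of the 7 members was under an unadjusted p of 0.05, against 366 genes or 3.28% of those tested. Libraries did not overlap for 1 of the 7, Tnf, against 10.7% of all tested genes. Between the doses, 1 of the 7, again Tnfrsf1b, had an adjusted p under 0.05, against 0.851% of all tested genes. Tnfrsf1b and Tnfsf9 were under an unadjusted p of 0.05 in that comparison, against 14.3% of tested genes, and these 2 of the 7 had libraries that did not overlap, against 19.4%.

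**Figure D2:**
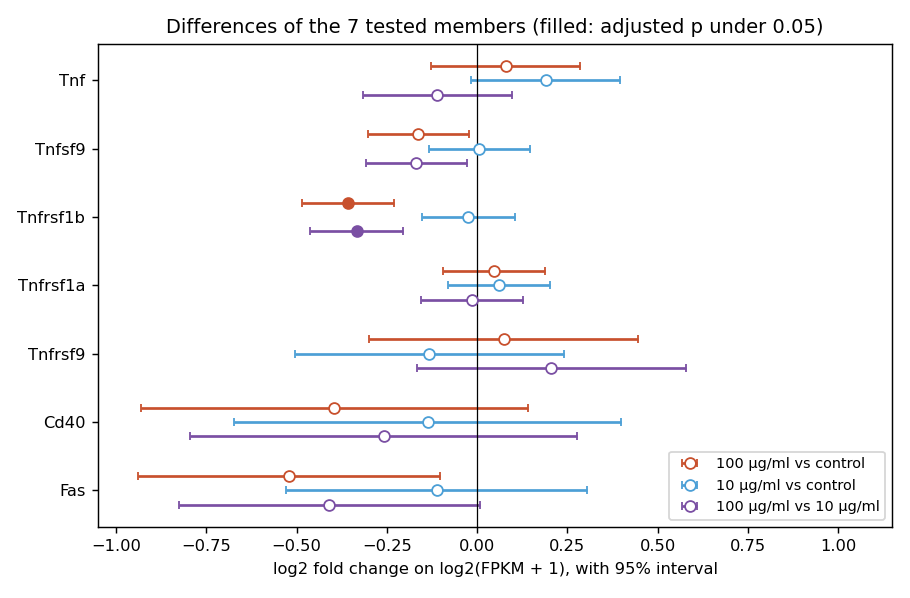
Fitted log2 fold change of the 7 tested members (horizontal axis, on log2(FPKM + 1)), with 95% intervals, for 3 comparisons, each dose with control and the doses with each other. Filled points have an adjusted p under 0.05 from limma; only the points of Tnfrsf1b at -0.36 and -0.33 are filled, and the intervals of Cd40 and Fas are the widest.

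Of the ligands, Tnf (ENSMUSG00000024401, chr17:35199381-35202007, minus strand) encodes the inflammatory cytokine that gives the family its name. Its control libraries held 29.6, 25.3 and 30.2 FPKM, its libraries at 10 µg/ml 30.9, 33.8 and 32.5 FPKM, and its libraries at 100 µg/ml 33.8, 28.5 and 27.8 FPKM. Every library of the low dose exceeded every control library, whereas those of the high dose overlapped both other groups. The means of the treated groups were 32.4 ± 1.45 FPKM (low dose) and 30.0 ± 3.24 FPKM (high dose), with SD and n = 3 each. The low dose differed from control by 0.19 on the log2 scale, with a 95% interval from -0.02 to 0.40, an unadjusted p of 0.067 and an adjusted p of 1 from limma. Without control replicate 2 that difference was 0.11, and without control replicate 3 it was 0.24. At 100 µg/ml it was 0.08, from -0.13 to 0.29, with an adjusted p of 0.685 from limma. Each interval holds values of both signs, so a difference anywhere inside it stays possible with 3 libraries a group.

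Tnfsf9 (ENSMUSG00000035678, chr17:57105385-57107757, plus strand) encodes the ligand of the costimulatory receptor CD137. It had 9.99, 10.5 and 10.4 FPKM in control, 10.4, 10.7 and 9.88 FPKM at 10 µg/ml, and 9.53, 9.16 and 8.60 FPKM at 100 µg/ml. All 3 libraries at 100 µg/ml lay below the 6 others, with means of 10.3 ± 0.271, 10.3 ± 0.435 and 9.10 ± 0.469 FPKM (SD, n = 3 each). Against control the log2 fold change was -0.16, with an interval from -0.30 to -0.02 and an unadjusted p of 0.0274, which did not pass after adjustment (adjusted p = 0.197 from limma). Against 10 µg/ml it was -0.17, with an adjusted p of 0.265 from limma. The lincRNA gene Gm11110, on the opposite strand at a mean of 2.59 FPKM, overlaps the 5′ end of Tnfsf9.

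Tnfsf12 (ENSMUSG00000097328, chr11:69686250-69695849, minus strand), which encodes TWEAK, was scarce, at 0.106, 0.197 and 0.368 FPKM in control, 0.105, 0.246 and 0.109 FPKM at 10 µg/ml, and 0.196, 0 and 0.215 FPKM at 100 µg/ml. The groups overlapped, and an estimated 0 to 7.31 fragments a library lay behind these values. The readthrough gene Tnfsfm13 shares its strand and position at a mean of 0.163 FPKM, so the split of reads between them is uncertain.

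Ltb (ENSMUSG00000024399, chr17:35194439-35196320, plus strand) encodes lymphotoxin beta, which forms a membrane trimer with lymphotoxin alpha. Its values were 0.0944, 0.0498 and 0 FPKM in control, 0.193, 0.0999 and 0.100 FPKM at 10 µg/ml, and 0.277, 0.0694 and 0 FPKM at 100 µg/ml. The low dose libraries exceeded the control libraries, but no more than an estimated 5.97 fragments a library were behind any value. The exact two-sided permutation test gave p = 0.1, the smallest that 3 against 3 libraries allow. Over the 9 tests of Ltb, Tnfsf12 and Tnfrsf4, the exact permutation p-values were between 0.1 and 0.9, and each was 0.9 after Benjamini-Hochberg adjustment. Ltb lies 3060 bases from Tnf and Lta, the partner of Ltb, 1157 bases on the other side of Tnf. In this cluster Tnf averaged 30.3 FPKM over the 9 libraries, whereas Ltb averaged 0.0982 FPKM and Lta 0.0882 FPKM.

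Of the receptors, Tnfrsf1b (ENSMUSG00000028599, chr4:145213463-145246870, minus strand) encodes TNF receptor 2, which has no death domain and signals through TRAF2. Its control libraries held 60.4, 63.6 and 67.9 FPKM, those at 10 µg/ml 64.1, 61.0 and 63.3 FPKM, and those at 100 µg/ml 47.6, 50.2 and 51.2 FPKM. The libraries at 100 µg/ml lay below all 6 others, and the control and 10 µg/ml libraries overlapped. Its mean of 64.0 FPKM in control compared with 62.8 ± 1.61 FPKM at the low dose and 49.7 ± 1.82 FPKM at the high dose (SD, n = 3 each). Against control the log2 fold change of the high dose was -0.36 (SE 0.06, interval from -0.49 to -0.23), with an adjusted p of 0.0188 from limma. Against 10 µg/ml it was -0.33 (SE 0.06, interval from -0.46 to -0.21), with an adjusted p of 0.0401 from limma. At 10 µg/ml against control it was -0.02, with an interval from -0.15 to 0.10.

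The call of Tnfrsf1b depended on which libraries were fitted. Against control the adjusted p from limma was 0.0893 without control replicate 2, 0.0614 without control replicate 3, 0.0573 without high dose replicate 3, and 0.0873 with only the 6 libraries compared, over a log2 fold change between -0.40 and -0.31. Between the doses the adjusted p from limma was between 0.0510 and 0.186 in 8 of 9 leave-one-out fits, all but the fit without high dose replicate 1, and 0.113 with only the 6 libraries compared.

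Tnfrsf1a (ENSMUSG00000030341, chr6:125349362-125362484, plus strand) encodes TNF receptor 1, the death domain receptor of the same ligand. It held 33.3, 32.4 and 36.0 FPKM in control, 35.4 FPKM in each library at 10 µg/ml, and 37.9, 33.7 and 33.8 FPKM at 100 µg/ml. The groups overlapped, with means of 33.9 ± 1.84, 35.4 ± 0.0376 and 35.1 ± 2.39 FPKM (SD, n = 3 each). At 100 µg/ml the log2 fold change was 0.05, with an interval from -0.09 to 0.19 and an adjusted p of 0.728 from limma. The interval leaves out the size of the Tnfrsf1b change.

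The ratio of both TNF receptors was read within each library, so that its scaling cancels. There were 1.89 ± 0.0746 FPKM of Tnfrsf1b per FPKM of Tnfrsf1a in control, 1.77 ± 0.0452 at 10 µg/ml and 1.42 ± 0.142 at 100 µg/ml (SD, n = 3 each). The log2 of the ratio was lower by 0.41 at 100 µg/ml than in control (-0.41), and it lay between -0.46 and -0.33 when a library was left out. It differed by -0.33 between the doses and by -0.09 between 10 µg/ml and control. The libraries of the groups overlapped in none of the 3 comparisons, for each of which the exact permutation test gave p = 0.1, the smallest it can give, and 0.1 after adjustment over the 3. Control and 10 µg/ml were barely apart, with a lowest ratio of 1.8107 in control and a highest of 1.8091 at 10 µg/ml. The highest ratio at 100 µg/ml was 1.51.

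**Figure D3:**
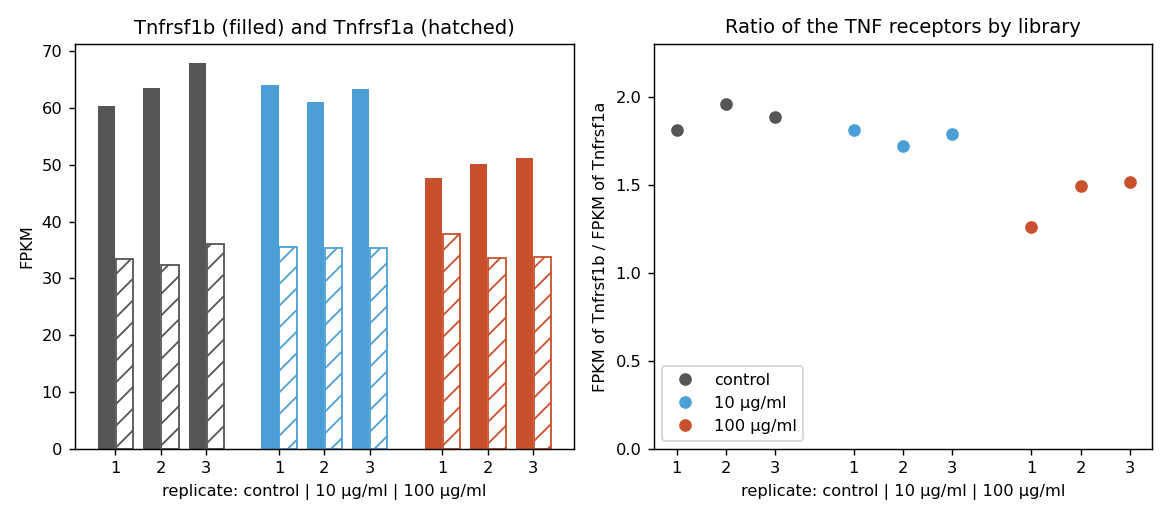
Left, FPKM (vertical axis from 0) of Tnfrsf1b (filled bars) and Tnfrsf1a (hatched bars) in each of the 9 libraries, by group and replicate. Right, the ratio of their FPKM in each library (points), which averages 1.89 in control, 1.77 at 10 µg/ml and 1.42 at 100 µg/ml; the Tnfrsf1b bars are shorter at 100 µg/ml and the Tnfrsf1a bars are not.

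Tnfrsf9 (ENSMUSG00000028965, chr4:150914562-150946102, plus strand) encodes CD137, the receptor of the Tnfsf9 product. It held 6.10, 9.60 and 8.88 FPKM in control, 6.81, 7.42 and 7.59 FPKM at 10 µg/ml, and 10.5, 7.35 and 7.99 FPKM at 100 µg/ml. The control libraries spread from 6.10 to 9.60 FPKM and overlapped both other groups. At 100 µg/ml it differed from control by 0.07 on the log2 scale, with an interval from -0.30 to 0.45 and an adjusted p of 0.844 from limma. Camta1 overlaps the gene on the opposite strand at a mean of 4.70 FPKM.

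Cd40 (ENSMUSG00000017652, chr2:165055627-165072948, plus strand) encodes the costimulatory receptor of CD40 ligand on antigen-presenting cells. It held 10.1, 7.18 and 5.87 FPKM in control, 4.71, 7.80 and 8.35 FPKM at 10 µg/ml, and 4.85, 7.07 and 4.81 FPKM at 100 µg/ml. The highest library was a control and the lowest was at 10 µg/ml, and all groups overlapped. Its residual SD of 0.34 on the log2 scale was above that of 95.4% of all tested genes, and above that of 95.6% of the 500 genes nearest in level. At 100 µg/ml the fitted difference from control was -0.40 on the log2 scale, with an interval from -0.93 to 0.14 and an adjusted p of 0.405 from limma, so a change of the size seen in Tnfrsf1b could not be detected here. It was -0.21 without control replicate 1 and -0.55 without control replicate 3.

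Fas (ENSMUSG00000024778, chr19:34290659-34327770, plus strand) encodes the death receptor of Fas ligand. It held 4.46, 6.16 and 4.85 FPKM in control, 4.41, 3.66 and 6.19 FPKM at 10 µg/ml, and 4.13, 2.87 and 2.90 FPKM at 100 µg/ml. All 3 libraries at 100 µg/ml lay below those of control, but replicate 1 at 100 µg/ml lay above replicate 2 at 10 µg/ml. The means were 5.16 ± 0.894, 4.75 ± 1.30 and 3.30 ± 0.717 FPKM (SD, n = 3 each). Against control the high dose differed by -0.52 on the log2 scale, the largest in size among the 7 tested members, with an interval from -0.94 to -0.10, an unadjusted p of 0.02 and an adjusted p of 0.17 from limma, which did not pass. Against 10 µg/ml it was -0.41, with an adjusted p of 0.359 from limma, and it was -0.24 without low dose replicate 3 and -0.55 without low dose replicate 2.

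Tnfrsf4 (ENSMUSG00000029075, chr4:156013843-156016612, plus strand) encodes the costimulatory receptor OX40, known best from T cells, and its mean lay just under the filter. It held 1.14, 0.326 and 0.998 FPKM in control, 0.500, 1.35 and 1.68 FPKM at 10 µg/ml, and 1.07, 0.852 and 0.877 FPKM at 100 µg/ml. The groups overlapped, with an estimated 4.79 to 23.1 fragments a library, and the exact permutation test gave p = 0.9 at 100 µg/ml against control.

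The rest of the superfamily set these members in context. Of 14 other ligands, 1 was tested, 7 were below the filter and 6 were listed at 0 in all 9 libraries, among them Fasl, Cd40lg and Tnfsf4, which encode the ligands of Fas, Cd40 and Tnfrsf4. The highest were Tnfsf13b, which encodes the B cell survival factor BAFF, at a mean of 3.48 FPKM, Tnfsf13 at 0.859 FPKM and Tnfsf18 at 0.433 FPKM. Tnfsf13b held 3.01, 3.26 and 4.25 FPKM in control, 3.72, 4.80 and 4.44 FPKM at 10 µg/ml, and 3.41, 2.35 and 2.04 FPKM at 100 µg/ml. Its libraries at 100 µg/ml lay below those at 10 µg/ml but overlapped control, and its log2 fold change between the doses of -0.58 did not pass (adjusted p = 0.166 from limma). Tnf made up 64.1% ± 1.98 of the FPKM of all ligands in control, 66.2% ± 0.559 at 10 µg/ml and 68.5% ± 0.361 at 100 µg/ml (SD, n = 3 each).

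Of 22 other receptors, 9 were tested, 8 were below the filter and 5 were listed at 0 throughout, and none of the 9 passed in any of the 3 comparisons. At 100 µg/ml against control 1 of these 9, Tnfrsf26, was under an unadjusted p of 0.05 from limma, against 19.4% of all tested genes. Libraries of the 2 groups did not overlap for 2 of the 9, Tnfrsf26 and Tnfrsf12a, against 23.8% of all tested genes. The highest were Ltbr, the receptor of the lymphotoxin trimer, at a mean of 20.6 FPKM, Tnfrsf12a, the receptor of TWEAK, at 18.4 FPKM, and Tnfrsf26 at 18.2 FPKM. Ltbr held 17.2, 46.1 and 16.6 FPKM in control against 16.1 to 20.4 FPKM in the 6 treated libraries, so that control replicate 2 stood apart. Over the 8 libraries other than that one Ltbr averaged 17.4 FPKM, under Tnfrsf12a at 18.6 FPKM and Tnfrsf26 at 18.3 FPKM, so its first rank came from this value, which also enters the receptor sum of control given below. Tnfrsf26 held 17.1, 16.9 and 16.5 FPKM in control and 21.1, 18.9 and 19.8 FPKM at 100 µg/ml, with no overlap, a log2 difference of 0.23 and an adjusted p of 0.0919 from limma. Tnfrsf12a held 18.4, 17.4 and 16.1 FPKM in control and 24.4, 18.8 and 19.1 FPKM at 100 µg/ml, also with no overlap, and an adjusted p of 0.279 from limma. Tnfrsf1b made up 25.6% ± 2.27 of the FPKM of all receptors in control, 26.1% ± 0.425 at 10 µg/ml and 21.8% ± 1.29 at 100 µg/ml (SD, n = 3 each).

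**Figure D4:**
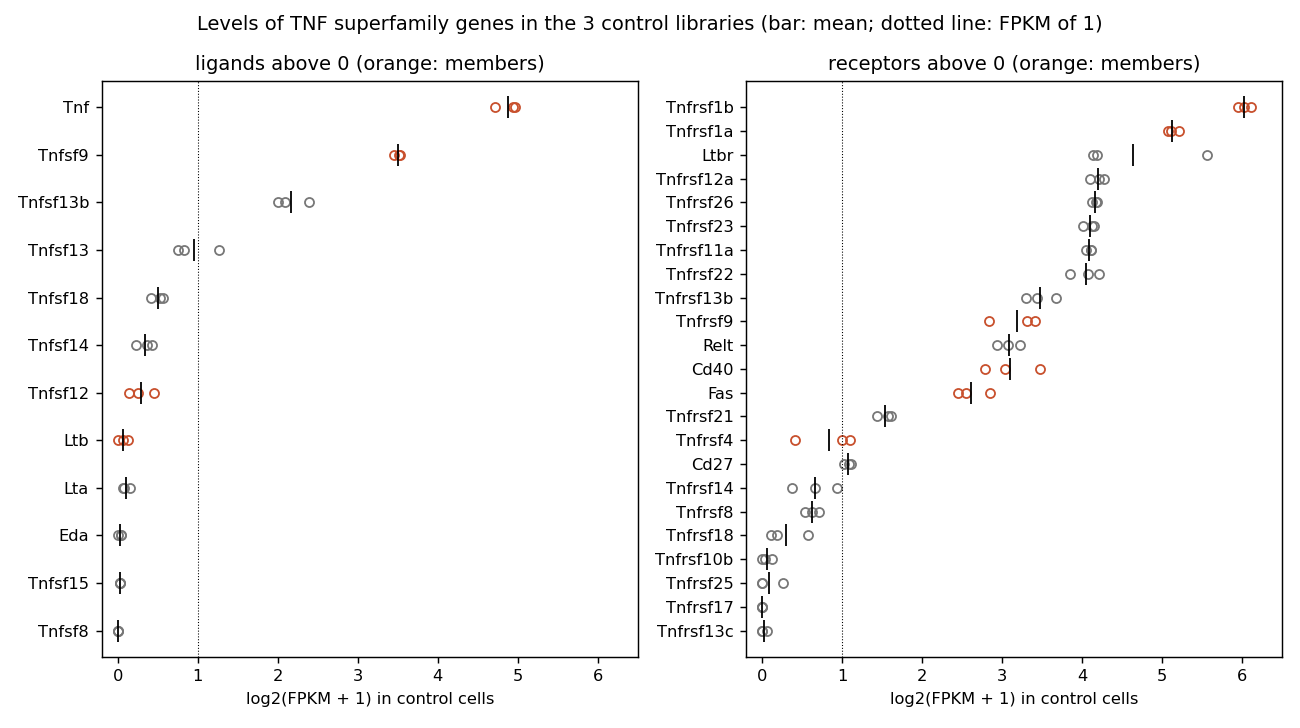
Levels of the ligands (left) and receptors (right) above 0 in at least 1 of the 9 libraries, as log2(FPKM + 1) in the 3 control libraries (points), with the mean as a bar, members in orange and other family genes in grey; rows are ordered by the mean over 9 libraries. Tnf and Tnfsf9 lead the ligands and Tnfrsf1b and Tnfrsf1a the receptors, and control replicate 2 of Ltbr, at 46.1 FPKM, lies apart from the other control points.

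Lists of 3 further parts of the pathway were read with the members. These were receptor signalling, control of the Tnf messenger with shedding of the protein, and NF-κB targets listed as TNF-responsive. Whether each of these targets responds to TNF in BV2 cells was not tested. In the signalling list (TRAF adaptors, kinases, ubiquitin ligases and caspase regulators) 27 of 30 genes were tested and 0 passed with limma at 100 µg/ml, with 2 under an unadjusted p of 0.05 and a median log2 fold change of 0.04. Over all tested genes 2.11% passed and 19.4% were under an unadjusted p of 0.05. No gene of the lists passed at 10 µg/ml against control.

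In the list of messenger control and shedding, 14 of 16 genes were tested and 1 passed at 100 µg/ml against control, lower, where 2.11% of all tested genes passed, with a median log2 fold change of -0.06. This was Zfp36l1, which encodes a protein that binds AU-rich elements and promotes decay of the messenger. It held 13.1, 13.4 and 11.2 FPKM in control, 12.4, 12.6 and 9.56 FPKM at 10 µg/ml, and 7.31, 8.34 and 7.96 FPKM at 100 µg/ml. The libraries at 100 µg/ml lay below all others, with a log2 fold change against control of -0.61 (SE 0.11) and an adjusted p of 0.0309 from limma. The adjusted p was between 0.0515 and 0.132 in 6 of 9 leave-one-out fits, those without control replicate 1, 2 or 3, low dose replicate 1, or high dose replicate 2 or 3. It was 0.0662 from limma with no filter on low values and 0.0748 with only the 6 libraries compared.

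Its relative Zfp36, which encodes tristetraprolin, the decay factor of Tnf messenger, passed between the doses. It held 20.8, 22.0 and 18.4 FPKM in control, 21.6, 21.3 and 23.3 FPKM at 10 µg/ml, and 16.5, 15.0 and 16.5 FPKM at 100 µg/ml, the last below all others. The log2 fold change was -0.44 between the doses (adjusted p = 0.0448 from limma) and -0.33 against control (adjusted p = 0.0657 from limma). The call between the doses was lost in 7 of 9 leave-one-out fits, where the adjusted p from limma reached 0.163, and kept without control replicate 3 or high dose replicate 1.

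Of 22 NF-κB targets 17 were tested, and 4 passed at 100 µg/ml against control, all lower, where 2.11% of all tested genes passed. The median log2 fold change of the 17 was -0.15. Between the doses 3 of the 17 passed, also lower, where 0.851% of all tested genes did. The 4 were Nfkbiz, which encodes an atypical member of the IκB protein family, Icam1, an adhesion molecule, Sod2, the mitochondrial superoxide dismutase, and Tnfaip2. Nfkbiz held 31.6, 32.3 and 30.6 FPKM in control, 34.4, 32.2 and 32.2 FPKM at 10 µg/ml, and 19.2, 20.5 and 21.6 FPKM at 100 µg/ml. Its libraries at 100 µg/ml lay apart below the 6 others, with a log2 difference of -0.60 against control (adjusted p = 0.00351 from limma) and -0.66 between the doses (adjusted p = 0.00424 from limma). Icam1 held 21.7, 21.7 and 20.0 FPKM in control, 19.6, 18.9 and 19.2 FPKM at 10 µg/ml, and 15.1, 14.9 and 15.3 FPKM at 100 µg/ml.

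The Icam1 libraries fell into 3 separate ranges, with a log2 difference of -0.46 against control (adjusted p = 0.00579 from limma) and -0.33 between the doses (adjusted p = 0.0293 from limma). Sod2 fell from 106, 102 and 96.5 FPKM in control to 78.5, 75.1 and 77.4 FPKM at 100 µg/ml, a difference of -0.39 on the log2 scale (adjusted p = 0.00962 from limma). Between the doses Sod2 differed by -0.31 (adjusted p = 0.0389 from limma). Tnfaip2 fell from 201 ± 8.19 to 149 ± 9.43 FPKM (SD, n = 3 each), a difference of -0.43 on the log2 scale (adjusted p = 0.0446 from limma). This call was lost in 13 of 18 alternatives, among them 8 of 9 leave-one-out fits, with an adjusted p from limma of up to 0.167 (without control replicate 2), and of the 9 it held without low dose replicate 2. The Sod2 call against control was lost without control replicate 1 (adjusted p = 0.0510 from limma) or control replicate 2 (adjusted p = 0.0624 from limma), and those of Nfkbiz and Icam1 against control held in all 9. With only the 6 libraries compared, the adjusted p against control from limma was 0.0610 for Icam1 and 0.0692 for Sod2. Between the doses, Icam1 lost its call in 7 and Sod2 in 8 of the 9 fits, with an adjusted p from limma of up to 0.159 and 0.139, and Nfkbiz kept it in all 9 but not with only the 6 libraries compared (adjusted p = 0.0606 from limma).

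Other targets of the list did not pass, among them Cxcl10, a chemokine gene, with a high dose difference of 0.48 on the log2 scale (adjusted p = 0.125 from limma), and Nfkbia, which encodes IκBα, with -0.32 (adjusted p = 0.0741 from limma). Markers of microglia and macrophages were read beside these genes: the log2 fold change of all 10 tested of 12 was below 0 at 100 µg/ml, with a median of -0.16. The summed level of the 12 was between 1152 and 1248 FPKM in control, 1146 and 1190 FPKM at 10 µg/ml, and 1071 and 1183 FPKM at 100 µg/ml. Their part in the results of Tnfrsf1b and the targets was not tested.

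**Figure D5:**
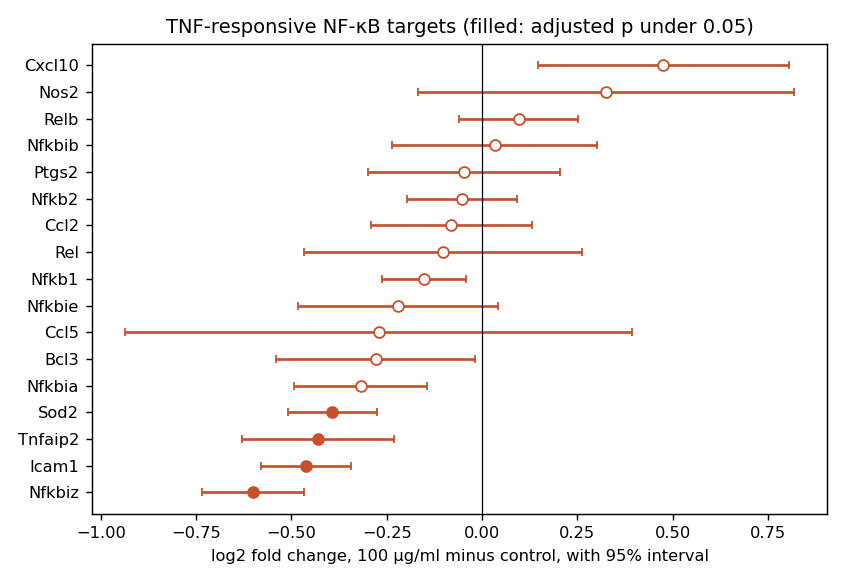
Fitted log2 fold change between 100 µg/ml and control (horizontal axis) of the 17 tested NF-κB targets listed as TNF-responsive, with 95% intervals. Filled points, with an adjusted p under 0.05 from limma, are Nfkbiz, Icam1, Tnfaip2 and Sod2, between -0.60 and -0.39; the intervals of Cxcl10, Nfkb1, Bcl3 and Nfkbia leave out 0, but these genes did not pass after adjustment.

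The genes whose pattern was most like each member were found by Pearson's r of log2(FPKM + 1) over the 9 libraries, as a description of libraries that share 3 doses. For Tnfrsf1b these were Mob1a (r = 0.993) and Mmp14 (r = 0.990), of which Mmp14 averaged 1.46 FPKM, near the filter of 1 FPKM. For Fas they were Spc24 (r = 0.959) and Necap1 (r = 0.957), for Tnfsf9 Cs (r = 0.966) and Nkiras2 (r = 0.960), and for Tnf Rnf10 (r = 0.914) and Mcfd2 (r = 0.913). Those of Tnfrsf1a were Rnf130 (r = 0.934) and Gm15210 (r = 0.930), those of Tnfrsf9 Emc10 (r = 0.955) and Ciapin1 (r = 0.925), and those of Cd40 Ankrd49 (r = 0.938) and Apobr (r = 0.920). No member was among the nearest genes of another. Between members r was highest for Tnf and Tnfrsf1a, at 0.847, and for Tnfsf9 and Tnfrsf1b, at 0.794.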

How the data were processed

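RNA of 9 libraries, 3 a group by their labels, was measured by RNA-seq after oligo(dT) selection. The authors aligned reads with TopHat and deposited FPKM values estimated with Cufflinks 2.1.1 on Ensembl release 77 (GRCm38); whether counting used strand is not given in the sources used here. From these values, log2(FPKM + 1) was tested with limma 3.58.1 (R 4.3.3, eBayes with trend) for the 11161 genes that averaged 1 FPKM or more, all groups in one fit, with Benjamini-Hochberg adjustment over all genes tested. The threshold was an adjusted p of 0.05. Members under the filter and the receptor ratio had exact two-sided permutation tests. FPKM does not carry depth, which was instead inferred from steps between low values, where 75.5% of 4522 values lay within 0.25 of whole fragments (50% by chance), so it is approximate. The procedure was also run on simulated data with changes larger than that of Tnfrsf1b. That run does not show how it performs at the size of Tnfrsf1b. Alternatives were 2 pseudocounts, 2 filters, 2 scalings, a replicate block, no trend, the 6 libraries compared, and each library left out.

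The members and gene lists were chosen with earlier results of these data known. Named were all members, list genes with an adjusted p under 0.05, the 3 most abundant other ligands and receptors, and the 2 genes most like each tested member; others named without passing were chosen after their values were seen. The lists were other ligands, other receptors, receptor signalling, messenger control and shedding, NF-κB targets, and markers of microglia and macrophages, T and B cells, astrocytes, neurons and oligodendrocytes (11 of 12 matched, 0 tested, sum of at most 1.80 FPKM), and fibroblasts and endothelium (Kdr alone of 8 tested, at 67.9 FPKM). Proteins were not analysed here, and some marker genes are not reported here.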

Additional observations from a re-analysis of the deposited data

Results flagged for a closer look

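A total of 5 results passed between the doses themselves, tested as 100 against 10 µg/ml with limma, where 0.851% of all tested genes passed. The log2 fold change was -0.33 for Tnfrsf1b, -0.33 for Icam1, -0.66 for Nfkbiz, -0.31 for Sod2 and -0.44 for Zfp36, each lower at 100 µg/ml in 3 of 3 libraries. Of 18 alternatives, the call was lost in 12 for Tnfrsf1b, 11 for Zfp36, 11 for Sod2, 9 for Icam1 and 1 for Nfkbiz. Groups of 3 libraries were too small to test for a library that stands apart, and the Ltbr value of 46.1 FPKM in control replicate 2 is given as a value.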

How the results depend on the processing

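Tnfrsf1b was lower at 100 µg/ml than in control and than at 10 µg/ml under all 18 alternatives, and it passed in 14 and 6 of them. Its fold change could not move under the filters, the block, no trend or the 6 libraries compared. Nor could it move with a library of the third group left out. The count of members called against control was 0 with only the 6 libraries compared and between 0 and 1 with a library left out. Between the doses it was 0 after quantile normalization, with the replicate block, without the trend and with only the 6 libraries, and between 0 and 1 with a library left out. The messenger control list against control had 2 calls with pseudocounts of 0.1 and 0.01, with a filter of 5 FPKM and after median-of-ratios rescaling, 3 after quantile normalization, 0 with no filter or only the 6 libraries, and 0 to 1 with a library left out. Between the doses it had 0 calls with no filter, the block, no trend or the 6 libraries, and 0 to 1 with a library left out. The NF-κB list had 1 call against control with the 6 libraries and 2 to 4 with a library left out, and between the doses 1 call with the block, 0 with the 6 libraries and 1 to 4 with a library left out. The signalling list had 0 to 1 against control with a library left out, the 1 without high dose replicate 1. The replicate numbers did not pair the libraries: the correlation of same-numbered deviations was between -0.088 and 0.153 over 9 pairs, with 1 above 0.1, and 4 libraries were nearest to their own number. Under the block the adjusted p between the doses from limma was 0.0811 for Tnfrsf1b, 0.125 for Zfp36, 0.0867 for Icam1 and 0.113 for Sod2, and the count over all genes against control went from 236 to 106 and between the doses from 95 to 13. With a library left out it was 28 (control replicate 2) to 530 (high dose replicate 1) against control, 8 (low dose replicate 1) to 189 (high dose replicate 1) between the doses, and 0 to 2 at the low dose.

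Small differences changed sign with a library left out. With 100 µg/ml against control the range over these fits was -0.0050 to 0.13 for Tnf and -0.0071 to 0.089 for Tnfrsf1a, below 0 when high dose replicate 1 was left out, and -0.10 to 0.19 for Tnfrsf9, below 0 when control replicate 1 or high dose replicate 1 was (-0.10 and -0.064). With 10 µg/ml against control it was -0.020 to 0.035 for Tnfsf9, below 0 without control replicate 1 (-0.014) or low dose replicate 2, -0.064 to 0.019 for Tnfrsf1b, above 0 without control replicate 3, -0.29 to 0.086 for Cd40, above 0 without control replicate 1 (0.053) or low dose replicate 1, and -0.28 to 0.028 for Fas, above 0 without control replicate 2 (0.0020) or low dose replicate 2. Between the doses it was -0.068 to 0.014 for Tnfrsf1a, above 0 without high dose replicate 2 or 3 (0.012). The causes were not tested. Ltb, Tnfsf12 and Tnfrsf4 rest on a few fragments, and the approximate depth sets no finer limit.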
